A study of Mus musculus with 6 samples.

Results

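The respiratory chain genes are the genes for the subunits of the 5 enzyme complexes of the inner mitochondrial membrane that carry electrons to oxygen and make ATP. They were taken from the gene symbols of the deposited count table (names beginning Nduf, Sdh, Uqcr, Cox or Atp5 as subunits are numbered, and the protein-coding genes of the mitochondrial genome), and a gene was kept when its count summed over the 6 libraries was at least 60. The table writes the mitochondrial genes without the mt- prefix, so these were matched by gene identifier to their GENCODE M21 names. Of 21847 genes in the table, 90 met the rule, 77 encoded in the nucleus and 13 in the mitochondrial genome. Complex I had 36 nuclear and 7 mitochondrial genes, complex II 4 nuclear genes, complex III 8 and 1, complex IV 14 and 3, and complex V 15 and 2. Another 5 rows matched by name and fell short of the count minimum. Just inside the minimum lay Cox5b with a summed count of 79, and just outside lay a row that carries the symbol Ndufa13 but is Yjefn3 in GENCODE, with 55, and Cox4i2, with 44.

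All libraries came from mouse spleen cells depleted of T cells and cultured for 3 days on a layer of human mesenchymal stromal cells (MSCs) from umbilical cord tissue, which carried Qtracker, a fluorescent nanoparticle label. The cells were then stained for CD11b, a surface protein of myeloid cells, and sorted by Qtracker signal, so that positive cells are those labelled as having engulfed MSCs and negative cells those labelled as not having done so. Each group had 3 libraries, and both groups had the same culture; no group without MSCs was analysed here. The sample labels call the sorted cells CD11b+ Ly6G- macrophages and the protocol text CD11b+Ly6C-, and neither mouse strain nor age is given in the sources used here. The series text describes the triplicates as paired and biological, without saying what the members of a pair share, so p-values here cover only the spread among these libraries, which may be technical. Library totals ranged from 33943090 to 55506993 counts.

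Electrons from NADH enter the chain at complex I and electrons from succinate at complex II. They pass through ubiquinone to complex III and through cytochrome c to complex IV, and complexes I, III and IV pump protons whose return flow drives the ATP synthase, complex V. Macrophages are known to change their use of this chain with their state of activation, and the uptake of dead cells brings them lipid and other fuel that mitochondria can oxidise. Complex II is built from nuclear genes only, whereas the other complexes combine nuclear subunits with subunits encoded by the mitochondrial genome, which is transcribed separately.

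The nuclear genes of the chain were higher in Qtracker-positive cells, whereas the mitochondrial genes were divided. Of 89 genes of the chain that passed the filter on low counts, 35 rose, 2 fell and 52 did not pass the test (edgeR quasi-likelihood test with replicate number as a block, Benjamini-Hochberg adjusted p under 0.05). All 35 that rose were nuclear. Among all 14605 genes tested, 18.5% were higher and 16.3% lower at this threshold, 34.9% in either direction. The median log2 fold change of the 76 nuclear genes tested was 0.63, or 1.55-fold, with 71 above 0 (49.6% of all genes were), and that of the 13 mitochondrial genes was -0.01, the same as the -0.01 of all genes. In 64 of the 77 nuclear genes every positive library lay above every negative one, a pattern found in 30.0% of all genes tested, and in 3 every positive library lay below, against 29.4%. In none of the 13 mitochondrial genes were the groups separate.

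**Figure D1:**
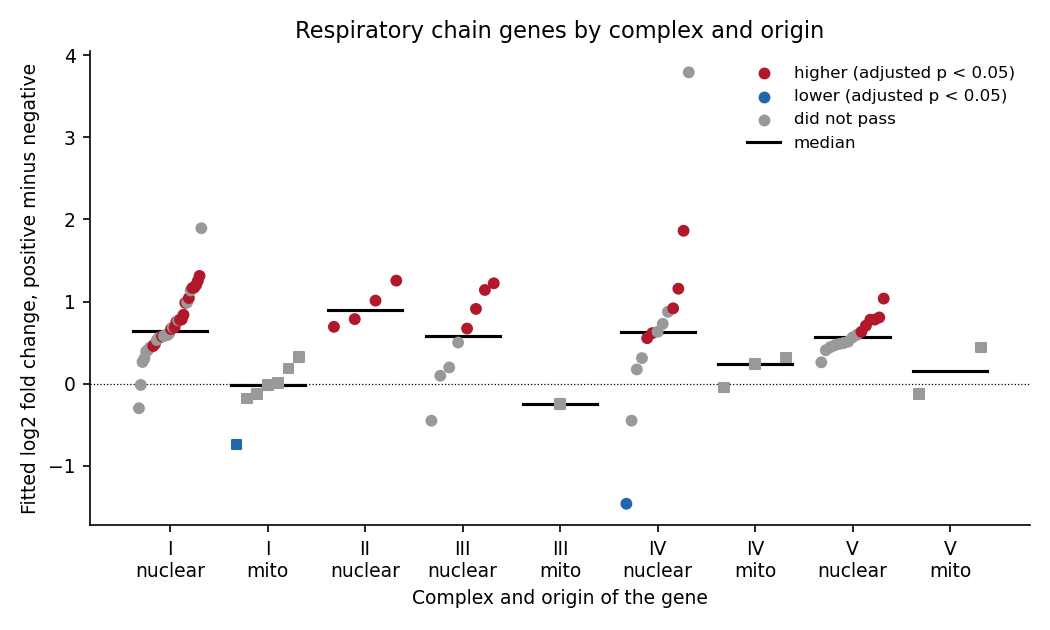
Fitted log2 fold change (vertical axis, positive minus negative) of each tested respiratory chain gene, grouped on the horizontal axis by complex and by nuclear (circles) or mitochondrial (squares) origin; red and blue mark genes past an adjusted p of 0.05, grey the others, and bars the medians. The nuclear medians of complexes I to V lie between 0.56 and 0.90, and the mitochondrial genes lie around 0.

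The counts of genes called depended on which libraries entered, while the nuclear median stayed above 0 in every alternative run. The median nuclear difference within a replicate pair was 0.92 log2 units for the first pair, 0.48 for pair 2 and 0.55 for pair 3, and 69 of 77 nuclear genes were higher in the positive library of all 3 pairs, against 36.7% of all genes. Without pair 1 the nuclear median was 0.50 and 65 nuclear genes of 77 rose and 5 fell, where 37.1% of all genes were higher and 35.8% lower. Without pair 2 edgeR called 0 genes of the chain, and 136 of all genes higher and 175 lower. Without pair 3 it called 0 genes of the chain and 0 of all genes in either direction. In each case 25 chain genes had an unadjusted p under 0.05. DESeq2 without pair 3 called 8 chain genes higher and limma-voom 0, and the counts over all genes in these runs are not given here. Libraries 2 and 3 of a group were close to each other, with a median absolute difference over the nuclear genes of 0.04 log2 units (negative) and 0.07 (positive), whereas library 1 differed from library 2 by 0.22 and 0.34. Scaling by library totals alone, in place of TMM, moved the median of all genes to -0.36 and that of the nuclear genes to 0.28. With it 11 genes of the chain were higher and 4 lower, beside 1572 of all genes higher and 3316 lower. The distance between the nuclear genes and all genes was 0.64 under both scalings. A change of scaling shifts all genes nearly alike, so this distance could hardly change and tests nothing.

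**Figure D2:**
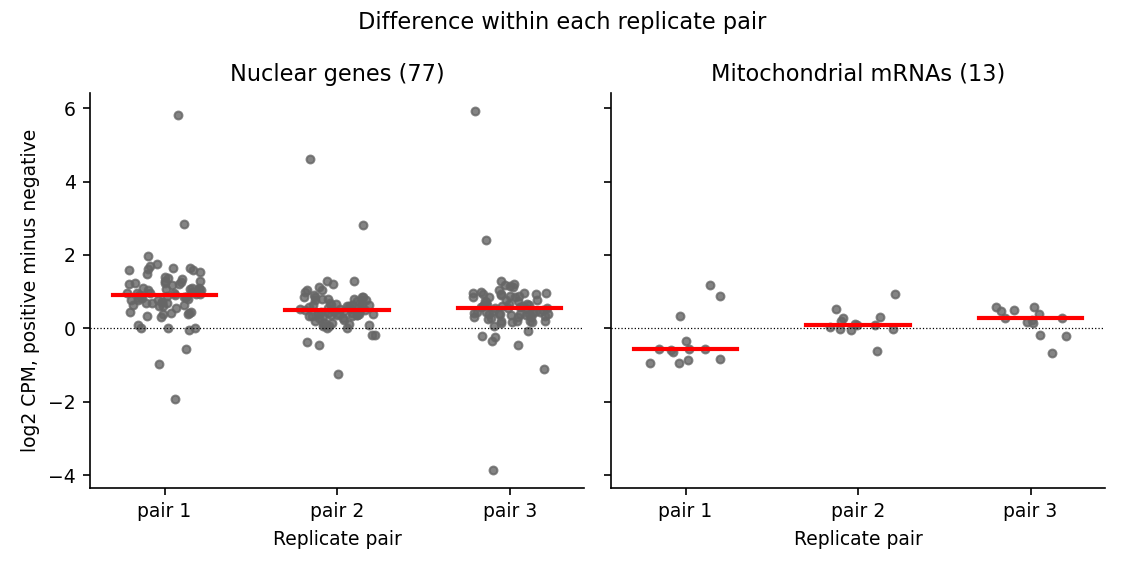
Difference in log2 CPM between the positive and the negative library of each replicate pair (vertical axis), with 1 point per gene and red bars at the medians; the left panel holds the 77 nuclear genes and the right panel the 13 mitochondrial mRNAs. The nuclear medians are 0.92, 0.48 and 0.55 in pairs 1, 2 and 3, and the mitochondrial medians -0.56, 0.10 and 0.28.

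The cell type markers also differed between the groups. The negative libraries, though labelled as macrophages, held 2872, 73586 and 73880 CPM of 12 summed neutrophil markers beside 333, 1730 and 1682 CPM of 11 macrophage markers. The positive libraries held 1369 to 1782 CPM of the neutrophil and 8755 to 11958 CPM of the macrophage markers. Of the tested markers 7 of 9 macrophage genes rose (Cd163 and Vsig4 were at 0 in at least 1 library), 9 of 12 neutrophil genes fell (Ly6g was at 0 in 1 positive library), and 8 of 8 B cell genes fell, from sums of 1815 to 5403 CPM to 199 to 271 CPM. Markers of T cells (7 of 8), NK cells (6 of 6), basophils and mast cells (5 of 5), dendritic cells (4 of 5) and cell division (5 of 9) also fell. Of 5 monocyte markers 2 fell and 3 did not pass. The monocyte sum was 574, 1744 and 1757 CPM in the negative and 1347, 1728 and 1880 CPM in the positive libraries. Eosinophil markers moved both ways (2 rose and 2 fell of 5), and the 1 erythroid marker tested did not pass. Fcer1a, Ms4a2, Il5ra, Trac, Alas2 and the NK cell genes Gzma, Klrb1c, Ncr1 and Prf1 were at 0 in at least 1 library. In such bulk libraries, a change in the mix of cells and a change in RNA per cell cannot be told apart, and the part of these other cells in the results was not tested. The summed nuclear genes of the chain were 4400, 4569 and 4629 CPM in the 3 negative libraries, whose neutrophil sums are those given above, and 7696, 6098 and 6301 CPM in the positive ones. In pair 1, where the neutrophil sum was 2872 CPM in the negative and 1369 CPM in the positive library, the nuclear sum was 1.75 times as high in the positive library, against 1.33 and 1.36 times in pairs 2 and 3. In the same pair the B cell sum was 5403 CPM in the negative and 199 CPM in the positive library, the T cell sum 87.8 and 10.7 CPM, the NK cell sum 36.4 and 1.48 CPM, and the macrophage sum 333 and 8755 CPM.

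Complex I, NADH dehydrogenase, had 16 of 36 nuclear genes higher, with a median log2 fold change of 0.64, and none lower. Its summed nuclear level was 1163, 1254 and 1274 CPM in the negative libraries and 2203, 1705 and 1719 CPM in the positive ones. The 7 nuclear core subunits, which carry the flavin and iron-sulfur centres, had a median of 0.53, and 3 of them rose, Ndufs3, Ndufs7 and Ndufs8. The 29 accessory genes had a median of 0.69, with 13 higher. Core and accessory groups were not tested against each other.

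The accessory membrane subunit Ndufc2 had the lowest p of the complex. Its level was 26.2, 27.0 and 29.2 CPM in the negative libraries and 62.3, 66.6 and 67.1 CPM in the positive ones, so the groups lay far apart and the spread within each was small. The log2 fold change was 1.25 with an SE of 0.10 (adjusted p = 0.0096, edgeR). Ndufa5, an accessory subunit of the matrix arm, measured 12.4, 11.3 and 11.5 CPM in the negative and 26.3, 21.1 and 22.5 CPM in the positive libraries (log2 fold change 0.98, SE 0.12, adjusted p = 0.015). Ndufs3, a core subunit of the matrix arm, measured 45.6, 32.1 and 29.7 CPM against 78.2, 54.9 and 57.8 CPM, with library 1 the highest of each group. Its change was 0.84 (SE 0.11, adjusted p = 0.016).

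The other accessory subunits that rose were Ndufa2, Ndufa7, Ndufa9, Ndufa12, Ndufb2, Ndufb5, Ndufb6, Ndufb8, Ndufc1, Ndufs5 and Ndufs6, with log2 fold changes from 0.48 (Ndufb2) to 1.31 (Ndufa12). Of the core subunits, Ndufs1 missed the threshold at 0.53 (adjusted p = 0.053), Ndufv1 measured 0.39 and Ndufv2 0.59. Besides the pseudogene Ndufa11b, accessory genes with separate groups that did not pass were Ndufa1, Ndufa3, Ndufa8, Ndufa10, Ndufa11, Ndufa13, Ndufb3, Ndufb4, Ndufb7, Ndufb9, Ndufb10 and Ndufs4, from 0.30 (Ndufb7) to 1.13 (Ndufb4). Ndufb11 was the 1 nuclear gene of complex I with every positive library below every negative one, at 65.8, 51.4 and 51.4 CPM against 68.5, 66.9 and 70.8 CPM (-0.30, adjusted p = 0.16). Ndufv3 and Ndufa6 had overlapping groups, with log2 fold changes of 0.26 and -0.02. Ndufa11b, a processed pseudogene in GENCODE, had the largest fitted change, 1.89, on counts of 74, 60 and 0 against 87, 108 and 125, and did not pass (adjusted p = 0.41).

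Complex II, succinate dehydrogenase, also a citric acid cycle enzyme, rose in all 4 of its subunit genes, with a median of 0.90. Its summed level was 337, 368 and 371 CPM in the negative libraries and 594, 652 and 686 CPM in the positive ones, or 1.76, 1.77 and 1.85 times as high in the 3 pairs. Sdhc, a membrane anchor, measured 36.5, 50.3 and 49.2 CPM in the negative and 107, 105 and 110 CPM in the positive libraries (log2 fold change 1.25, SE 0.15, adjusted p = 0.015). Sdhb, the iron-sulfur subunit, measured 50.3, 65.6 and 68.4 CPM against 116, 120 and 133 CPM (1.01, SE 0.13, adjusted p = 0.016).

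The positive libraries differed little from each other in these genes, and negative library 1 was the lowest of all for Sdhb, Sdhc and Sdhd. Sdhd, the second membrane anchor, measured 50.3, 72.1 and 73.9 CPM against 106, 111 and 116 CPM (0.79, SE 0.15, adjusted p = 0.029). Sdha, the flavoprotein subunit, was the exception, with its highest negative value in library 1, at 200.1, 180.3 and 179.7 CPM against 264, 316 and 327 CPM (0.69, SE 0.16, adjusted p = 0.044). None of the 4 had a near-identical copy in the table.

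Because many nuclear chain genes were higher together, their promoters were searched for short motifs of transcription factors known to act on such genes. RefSeq promoter windows of the GRCm38.p6 assembly, 250 bases before to 50 bases after the start site, were matched for 63 of the 77 nuclear genes. The letters searched on both strands were GCATGCGC for NRF1, CCGGAAGT for GABPA, AAGATGGC for YY1 and TCAAGGTCA for ERR alpha; none of these contains another. One window per motif is printed, that of the gene which rose with the lowest p among those holding it, chosen after the values were seen, 5′ to 3′ on the strand of the gene with the match in capitals. The Sdhb window is chr4:140961021-140961320 (plus strand, NRF1, first base -54 from the start site), the Ndufs3 window chr2:90904672-90904971 (minus strand, GABPA on the opposite strand, first base 1), the Ndufa9 window chr6:126849095-126849394 (minus strand, YY1, first base 30) and the Sdhd window chr9:50603800-50604099 (minus strand, ERR alpha on the opposite strand, first base 37).
Sdhb: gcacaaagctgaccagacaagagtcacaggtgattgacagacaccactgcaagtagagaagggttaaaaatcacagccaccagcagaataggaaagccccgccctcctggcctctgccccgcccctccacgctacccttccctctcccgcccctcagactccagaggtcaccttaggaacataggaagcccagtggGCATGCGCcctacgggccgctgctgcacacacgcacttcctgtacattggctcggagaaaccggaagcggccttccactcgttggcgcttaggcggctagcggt
Ndufs3: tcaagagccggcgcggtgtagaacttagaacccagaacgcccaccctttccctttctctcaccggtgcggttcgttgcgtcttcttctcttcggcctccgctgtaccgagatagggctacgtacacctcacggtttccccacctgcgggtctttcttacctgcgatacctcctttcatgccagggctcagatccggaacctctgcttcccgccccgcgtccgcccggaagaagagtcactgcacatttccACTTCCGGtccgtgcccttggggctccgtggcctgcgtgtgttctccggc
Ndufa9: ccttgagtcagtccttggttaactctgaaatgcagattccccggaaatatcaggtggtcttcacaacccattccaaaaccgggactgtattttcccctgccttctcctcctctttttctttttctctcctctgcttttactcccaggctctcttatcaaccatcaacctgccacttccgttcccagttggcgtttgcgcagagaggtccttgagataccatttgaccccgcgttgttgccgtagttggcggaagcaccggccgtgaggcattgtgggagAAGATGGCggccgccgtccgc
Sdhd: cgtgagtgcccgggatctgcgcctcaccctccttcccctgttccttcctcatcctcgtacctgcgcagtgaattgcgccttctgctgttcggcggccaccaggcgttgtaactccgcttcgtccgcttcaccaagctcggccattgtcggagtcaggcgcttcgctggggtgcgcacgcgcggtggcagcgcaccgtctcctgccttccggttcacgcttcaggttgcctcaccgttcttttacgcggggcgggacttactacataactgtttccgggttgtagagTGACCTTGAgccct
The NRF1 letters were in 8 of the 63 windows (12.7%) and in 5.32% of the 10249 windows of tested genes, and the YY1 letters in 9 (14.3%) and 4.75%. The GABPA letters were in 5 (7.94%) and 8.43%, and the ERR alpha letters in 2 (3.17%) and 0.244%. At least 1 of the motifs was in 23 of the 63 windows (36.5%), against 17.5% of all. Among the 27 genes that rose and had a window, 12 held a motif, and among the 36 others 11 did. A match is a run of letters and not a measured binding site. Of the genes for these factors, Nrf1 fell, at 53.7, 55.1 and 55.2 CPM in the negative and 38.7, 34.5 and 36.0 CPM in the positive libraries (-0.59, SE 0.11, adjusted p = 0.029, edgeR; named after its values were seen), while Gabpa measured -0.23, Yy1 -0.23 and Esrra 0.24 and did not pass.

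Complex III, which passes electrons from ubiquinol to cytochrome c, had 4 of 8 nuclear genes higher, with a median of 0.59. All 4 were small accessory subunits. Cyc1, the catalytic cytochrome c1 subunit, which the name rule does not take, also rose, at 63.7, 61.4 and 60.2 CPM in the negative and 104, 81.5 and 79.3 CPM in the positive libraries (0.51, SE 0.13, adjusted p = 0.0495). Uqcrb, the ubiquinone-binding protein, measured 15.1, 19.9 and 22.2 CPM in the negative and 31.3, 34.4 and 41.2 CPM in the positive libraries (0.91, SE 0.12, adjusted p = 0.016). Uqcr11 measured 26.5, 25.9 and 26.2 CPM against 73.8, 53.1 and 49.1 CPM (1.14, SE 0.16, adjusted p = 0.019). Negative libraries were nearly equal for this gene, and positive library 1 stood above the other two.

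Uqcr10 measured 33.4, 32.8 and 32.8 CPM against 59.2, 48.9 and 50.1 CPM (0.67, SE 0.11, adjusted p = 0.025). The largest change in the complex was that of Uqcrq, 1.22 (SE 0.29, adjusted p = 0.047), where positive library 1 measured 182 CPM, the other positive libraries 84.9 and 85.6 CPM, and the negative ones 46.6 to 47.2 CPM. The catalytic Rieske protein gene Uqcrfs1 had overlapping groups at 0.20, as had the core protein gene Uqcrc2 at 0.10. The other core protein gene, Uqcrc1, had separate groups and missed the threshold at 0.50 (adjusted p = 0.0501). Uqcrh, the hinge subunit, went the other way, at 147, 105 and 108 CPM in the negative and 74.6, 93.3 and 93.7 CPM in the positive libraries (-0.45, SE 0.22, adjusted p = 0.18), with separate groups.

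Complex IV, cytochrome c oxidase, had 5 nuclear genes higher and 1 lower of 13 tested, with a median of 0.63. Its nuclear genes surround a catalytic core made from mitochondrial genes, and several come as isoforms of different tissues. Cox7b measured 41.6, 42.7 and 46.2 CPM in the negative and 96.1, 73.5 and 78.3 CPM in the positive libraries (0.92, SE 0.15, adjusted p = 0.023). Cox6c measured 29.9, 34.3 and 35.5 CPM against 48.2, 43.8 and 54.6 CPM (0.55, SE 0.13, adjusted p = 0.042). Groups were separate in both genes.

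Ndufa4, named as a complex I subunit and now assigned to complex IV, measured 3.90, 3.09 and 2.51 CPM against 9.57, 7.60 and 4.61 CPM (1.16, SE 0.21, adjusted p = 0.028). Its relative Ndufa4l2 had a summed count of 16, under the minimum. Cox4i1, the general form of subunit 4, measured 182, 188 and 188 CPM against 330, 258 and 272 CPM (0.62, SE 0.15, adjusted p = 0.048), while its relative Cox4i2, known from lung, had a summed count of 44.

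The isoforms of subunits 6 and 7 were uneven. Cox6a2, the heart and skeletal muscle form of subunit 6a, rose by 1.86 log2 units (SE 0.44, adjusted p = 0.046), with 3.51, 0.69 and 0.56 CPM in the negative and 25.6, 1.67 and 1.44 CPM in the positive libraries. It was higher in every pair, and the groups overlapped because negative library 1 exceeded positive libraries 2 and 3. The general form Cox6a1 had separate groups, at 90.6, 102 and 102 CPM against 216, 144 and 138 CPM, and missed the threshold (0.73, adjusted p = 0.073). Per kilobase of transcript, Cox6a1 stood at a mean of 172 CPM in the negative and 291 CPM in the positive libraries, Cox6a2 at 2.33 and 14.1 CPM.

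Cox6b2, the testis form of subunit 6b, was the 1 nuclear gene of the chain that fell (-1.46, SE 0.35, adjusted p = 0.047), from 1.12, 2.64 and 2.84 CPM to 0.26, 1.10 and 1.29 CPM. Positive library 3 lay above negative library 1, so the groups overlapped. Its general form Cox6b1 had a summed count of only 30 and no near-identical copy in the table. The cause of so low a count was not tested, so the levels of the general and testis forms cannot be compared. Cox7a1, a muscle form, had the largest fitted change of the complex, 3.79 (SE 1.21, adjusted p = 0.081), on counts of 0, 11 and 12 in the negative and 93, 98 and 74 in the positive libraries, with separate groups. Cox7a2, the liver and general form, had 134 counts in all, with 0 in library 1 of both groups and no near-identical copy in the table. The cause of this low count was not tested either, so the levels of Cox7a1 and Cox7a2 cannot be compared.

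Cox7a2l, which helps to join complexes III and IV into supercomplexes, had every positive library below every negative one, at 169, 137 and 139 CPM against 113, 101 and 110 CPM (-0.45, SE 0.12, adjusted p = 0.055). It passed the threshold when library totals were used for scaling (-0.80, adjusted p = 0.033) and under DESeq2 (-0.49, adjusted p = 0.014). Cox5a (0.87) and Cox8a (0.63) had separate groups and did not pass. Cox7c measured 0.31 with overlapping groups, and Cox5b was not tested.

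**Figure D3:**
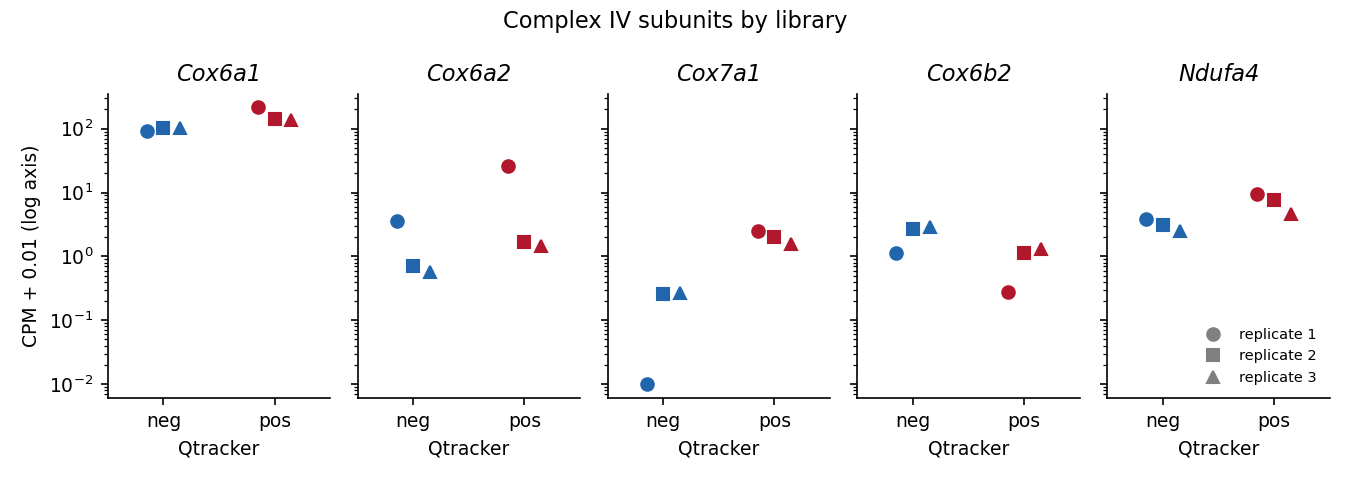
Level of 5 complex IV genes in each library (vertical log axis, CPM plus 0.01; blue negative, red positive; the symbol marks the replicate). Cox6a2 is highest in positive library 1 at 25.6 CPM, Cox7a1 has 0 in negative library 1, and Cox6b2 is lower in the positive library of each pair.

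Complex V, the ATP synthase, had 6 of 15 nuclear genes higher, all with fitted changes above 0 and a median of 0.56. The genes that rose all belong to the membrane part Fo and the peripheral stalk, where 6 of 9 passed with a median of 0.71. None of the 5 genes of the catalytic F1 part passed in edgeR, where the median was 0.48. An unadjusted p under 0.05 was reached by 3 of the 5, and by 7348 of all 14605 genes tested. Under DESeq2 Atp5a1 (adjusted p = 0.039) and Atp5e (adjusted p = 0.043) passed, and Atp5b, Atp5c1 and Atp5d did not. The parts were not tested against each other. Atp5j2, subunit f, measured 44.6, 53.1 and 49.8 CPM in the negative and 86.5, 83.1 and 83.1 CPM in the positive libraries (0.78, SE 0.12, adjusted p = 0.021). Atp5mpl, a small subunit of the membrane part, measured 25.0, 27.4 and 27.4 CPM against 45.7, 41.9 and 52.5 CPM (0.81, SE 0.12, adjusted p = 0.022). In both genes the positive libraries lay well above the negative ones.

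Atp5g1 and Atp5g3 encode the same mature subunit c of the proton-turning ring. Atp5g1 measured 18.6, 17.2 and 18.2 CPM against 48.4, 31.1 and 33.4 CPM (1.04, SE 0.16, adjusted p = 0.022), and Atp5g3 86.1, 97.5 and 94.5 CPM against 169, 140 and 146 CPM (0.71, SE 0.15, adjusted p = 0.035). Both had separate groups with positive library 1 the highest. Atp5k and Atp5o, of the membrane part and the peripheral stalk, also rose (0.78 and 0.63). Of the other membrane and peripheral stalk genes, Atp5f1 measured 0.47, Atp5h 0.49 and Atp5j 0.44.

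The alpha and beta subunits form the catalytic head of the F1 part. Atp5b, the beta subunit, measured 465, 475 and 474 CPM in the negative libraries and 899, 578 and 584 CPM in the positive ones (0.51, adjusted p = 0.14), and Atp5a1, the alpha subunit, 388, 380.1 and 379.8 CPM against 526, 489 and 506 CPM (0.41, adjusted p = 0.087). Groups were separate in both, yet neither change passed the edgeR test. Atp5c1 measured 0.48, Atp5d 0.26 and Atp5e 0.56, and Atp5s, a factor named with the complex, 0.59.

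The 13 mRNAs of the mitochondrial genome were mostly lower in the positive library of pair 1, where 3 of 13 were higher, and mostly higher in pairs 2 and 3, where 9 and 10 were. They took 0.739%, 0.591% and 0.609% of all counts in the negative libraries and 0.356%, 0.546% and 0.624% in the positive ones, each with an exact binomial 95% interval at most 0.0058 percentage points wide that covers counting error only. The lowest share was in positive library 1, and otherwise the groups overlapped. Nuclear genes of the chain took 0.565%, 0.483% and 0.489% against 0.685%, 0.539% and 0.556%. The ratio of mitochondrial to nuclear counts of the chain, which needs no scaling between libraries, was 1.31, 1.22 and 1.25 in the negative and 0.52, 1.01 and 1.12 in the positive libraries. These groups did not overlap, and the positive library had 0.40, 0.83 and 0.90 times the ratio of its negative partner.

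**Figure D4:**
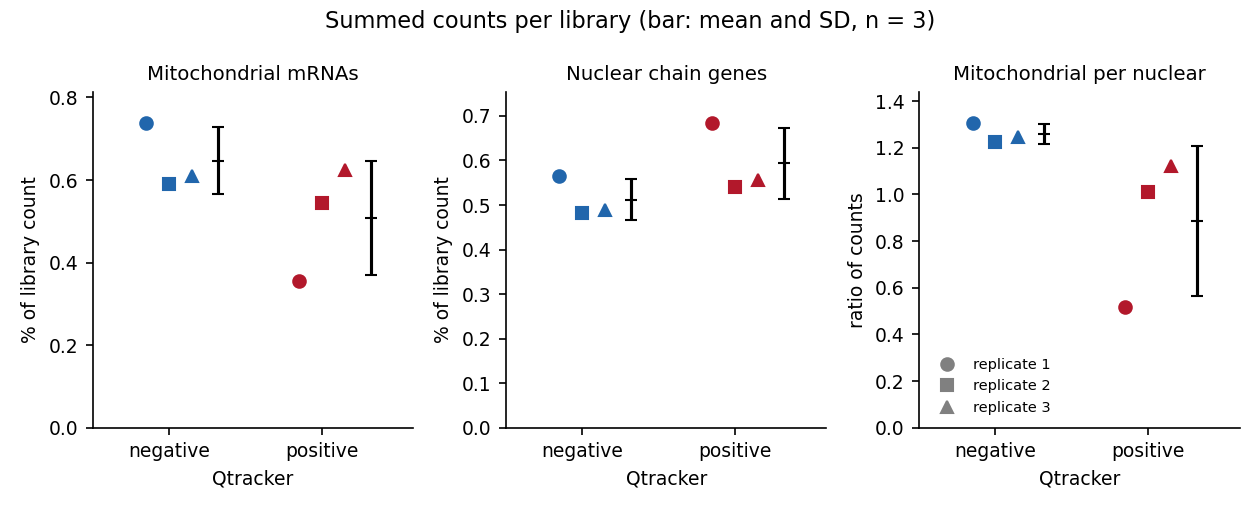
Percent of each library's counts in the 13 mitochondrial mRNAs (left) and in the 77 nuclear chain genes (middle), and the ratio of the 2 counts (right), by Qtracker group; symbols mark replicates, and bars the mean and SD of 3 libraries. The ratio is 1.22 to 1.31 in the negative and 0.52 to 1.12 in the positive libraries.

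Library 1 set the positive group apart within the mitochondrial genes. The median difference over the 13 genes was -0.56 log2 units for the first pair, 0.10 for pair 2 and 0.28 for pair 3. Positive library 1 differed from positive libraries 2 and 3 by a median of 0.81 and 0.89 log2 units in these genes. Without pair 1, edgeR called 8 of the 13 higher (mt-Nd1, mt-Nd2, mt-Nd4, mt-Nd4l, mt-Nd5, mt-Nd6, mt-Co1 and mt-Atp6, from 0.14 to 0.77) and mt-Nd3 lower. In that run 37.1% of all genes were higher and 35.8% lower. With all pairs 0 were called higher by edgeR, and DESeq2 called mt-Atp6 higher. In edgeR 2 of 13 had an unadjusted p under 0.05, against 7348 of all 14605 genes tested.

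Of the complex I genes encoded there, mt-Nd3 fell, at 12.3, 4.99 and 6.62 CPM in the negative and 6.40, 3.26 and 4.16 CPM in the positive libraries (-0.74, SE 0.18, adjusted p = 0.0485). It was lower in every pair, although the groups overlapped. The other 6, which like mt-Nd3 encode membrane-arm subunits, were lower in pair 1 and higher in pairs 2 and 3. For mt-Nd1 the levels were 369.6, 359 and 383 CPM against 291, 445 and 574 CPM (0.18, SE 0.24, adjusted p = 0.58), and for mt-Nd5 they were 648, 553 and 557 CPM against 339, 593 and 676 CPM (-0.18, SE 0.31). The fitted changes of mt-Nd2 (-0.01), mt-Nd4 (0.01), mt-Nd4l (-0.13) and mt-Nd6 (0.33) also did not pass.

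The single complex III gene mt-Cytb, for cytochrome b, measured 831, 668 and 713 CPM against 456, 658 and 785 CPM (-0.25, SE 0.27, adjusted p = 0.51). For complex IV, mt-Co1 measured 2587, 2476 and 2575 CPM against 1758, 2706 and 3143 CPM (-0.05, SE 0.28). The genes of the other mitochondrial subunits were higher in pair 1: mt-Co2 measured 87.4, 98.4 and 72.1 CPM against 162, 101 and 62.2 CPM (0.24, SE 0.27), and mt-Co3 62.9, 298 and 228 CPM against 143, 292 and 200.2 CPM (0.32, SE 0.34). Positive library 1 was thus the lowest of its group for mt-Co1 and mt-Co3 and the highest for mt-Co2.

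Of the ATP synthase genes, mt-Atp6 was higher in every pair, at 157, 164 and 207 CPM against 198, 235 and 285 CPM (0.44, SE 0.12, adjusted p = 0.061). mt-Atp8 was low in library 1 of both groups, at 30.1, 115 and 111 CPM against 19.9, 113 and 131 CPM (-0.13, SE 0.21). Per kilobase, the mean level in the negative libraries was 1648 CPM for mt-Co1, 126 CPM for mt-Co2 and 250.2 CPM for mt-Co3. Transcripts identical or nearly so to mt-Co2, mt-Co3, mt-Atp6, mt-Nd4 (100% over the aligned bases), mt-Nd3 (99.7%) and part of mt-Co1 (99.8%) stand in GENCODE M21 under other gene names. These copies have no row in the count table. Gm10222, a match to mt-Nd4l at 100% over the aligned bases, has a row and held 12.2% of their joint count. The part of such copies in the levels of these genes, and so in the mitochondrial shares and the ratio to nuclear counts, was not tested.

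Some nuclear chain genes had near-identical copies with counts of their own in the table; how reads were divided between a gene and its copies was not tested. Of 77 nuclear genes, 20 had at least 1 other row whose transcript matched theirs at 95% identity or more over at least 50% of the shorter one, and of 13 mitochondrial genes 5 had one. In 4 nuclear genes the copies held more than 50% of the joint count, with 97.9% for Cox5b, 90.9% for Ndufb4, 77.1% for Cox7c and 55.9% for Atp5g1. The share was 49.7% for Ndufs5, 45.7% for Cox6c, 36.5% for Uqcrb and 18.7% for Cox7a2l. The levels given above for these genes are therefore uncertain. The following stretches, of 90 bases each from GENCODE M21 transcripts, show how close such copies are. For Atp5g1 and its processed pseudogene Gm10039 they are positions 322 to 411 of a coding stretch of 411 bases that holds 1 difference, printed in capitals, and for Ndufb4 and its processed pseudogene Ndufb4c positions 1 to 90 of 390 bases without a difference.
Atp5g1: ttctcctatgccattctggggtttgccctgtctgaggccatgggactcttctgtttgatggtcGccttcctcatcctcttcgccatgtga
Gm10039: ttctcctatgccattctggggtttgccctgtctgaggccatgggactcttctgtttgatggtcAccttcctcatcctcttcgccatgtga
Ndufb4: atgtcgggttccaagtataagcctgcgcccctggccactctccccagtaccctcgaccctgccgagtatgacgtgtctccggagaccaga
Ndufb4c: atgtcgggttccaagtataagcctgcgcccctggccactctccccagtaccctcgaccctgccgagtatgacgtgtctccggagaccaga
With the copies added to each gene, an alternative chosen after seeing the data, 37 chain genes rose and 2 fell. The sum for Cox7c was 72.1, 70.9 and 72.3 CPM in the negative and 144, 102 and 104 CPM in the positive libraries, and it passed (0.69, adjusted p = 0.042) where the single row had not (adjusted p = 0.17). The sum for Ndufb4 also passed (0.93, adjusted p = 0.028, against 0.063 alone), and that for Cox5b did not (0.73, adjusted p = 0.12). Atp5l, subunit g of the ATP synthase, had a count of 2 in its own row and was under the minimum, while its copies held 99.99% of the joint count, nearly all in Gm10221. Their sum was 53.1, 55.2 and 56.5 CPM against 119, 86.7 and 79.3 CPM (0.77, adjusted p = 0.045).

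**Figure D5:**
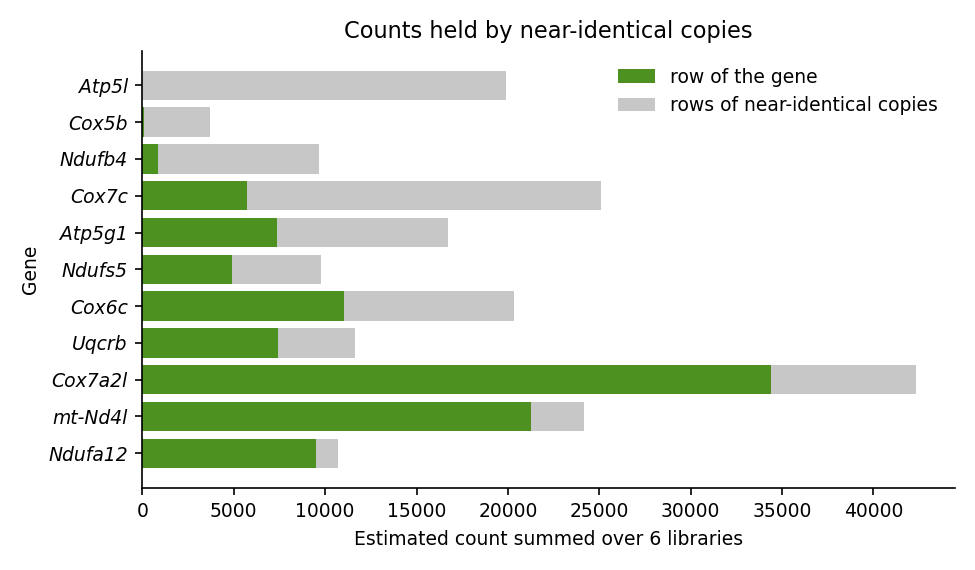
Estimated count summed over 6 libraries (horizontal axis) in the row of a gene (green) and in the rows of its near-identical copies (grey), for genes with more than 10% of the joint count in copies. The copies hold 97.9% for Cox5b, 90.9% for Ndufb4 and 77.1% for Cox7c; Atp5l is shown although its own count of 2 is under the minimum.

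Genes that build, supply or regulate the chain were counted from lists that share none of the 90 genes, though one of them holds Cyc1, the cytochrome c1 subunit of complex III, whose name the rule does not match. Against 18.5% of all tested genes higher and 16.3% lower, a list with a like share shows nothing about its genes. Of 15 complex I assembly factors tested, 5 rose and 0 fell in edgeR, with the lowest p for Tmem126b, a membrane-arm assembly factor (9.03, 9.76 and 10.98 CPM against 19.9, 24.7 and 24.9 CPM; 1.22, SE 0.12, adjusted p = 0.012), and Nubpl, which delivers iron-sulfur clusters (1.05). None of 4 complex II assembly factors passed in edgeR, where Sdhaf4 (1.03) had the only unadjusted p under 0.05. Of 6 complex III factors, Uqcc2 (1.35) and Uqcc1 (0.69) rose, and of 22 complex IV factors 7 rose, with the lowest p for Sco2, a copper chaperone (1.67), and Coa5 (0.98). For complex V, 3 of 4 rose, among them Tmem70 (0.76) and Atpaf1 (0.80). The median log2 fold changes of these 5 lists were 0.42, 0.25, 0.21, 0.41 and 0.78.

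Among 17 electron carrier and ubiquinone genes, 5 rose and 1 fell, with a median of 0.12. Etfa, which feeds electrons from fatty acid oxidation, rose by 1.00, Coq3, of ubiquinone synthesis, by 1.44, and Coq8a fell by 2.26 log2 units (SE 0.43, adjusted p = 0.0304). Of 19 genes of mitochondrial import and inner membrane organisation 14 rose, with a median of 0.59, with the lowest p for Chchd6 of the cristae-organising complex (2.55) and the import receptor Tomm20 (1.16). Of 11 carriers and channels 4 rose, among them the pyruvate carrier gene Mpc1 (1.32) and the ADP/ATP carrier gene Slc25a4 (0.72). Of 15 genes of mitochondrial DNA upkeep and transcription, 1 passed, Mgme1, a nuclease, which rose (0.88), and the median was -0.10.

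Of 17 genes of mitochondrial RNA processing and stability 4 rose, a share near that of all genes, among them the partners Lrpprc (0.94) and Slirp (1.07), which bind and stabilise mitochondrial mRNAs. Among 13 regulators of mitochondrial biogenesis 3 rose and 2 fell, also near the shares of all genes, with a median of -0.01. Ppard (1.10), Pprc1 (1.01) and Pparg (4.16), a nuclear receptor of lipid metabolism, rose. Ppargc1a, the coactivator best known for driving mitochondrial biogenesis, fell from 1.28, 0.54 and 1.07 CPM to 0.05, 0.16 and 0.15 CPM (-2.90, SE 0.70, adjusted p = 0.047), as did Nrf1, given above; these 2 and Pparg were named after their values were seen.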

How the data were processed

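RNA of 6 libraries from sorted mouse spleen cells was sequenced with a stranded kit, per the labels' protocols. The authors deposited estimated counts per gene as whole numbers, made with Salmon on mm10 per the submitters' processing notes, which also name FastQC; no source used here gives the annotation release or the handling of human reads. A deposited table of normalized counts, a signal of unstated formula, served only as an alternative. Samples were grouped by title. The members and lists were chosen with earlier results of these data known.

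Genes were filtered with filterByExpr (minimum count 10, minimum total 15), scaled by TMM and tested in edgeR 4.0.16 (R 4.3.3) by its quasi-likelihood F test, blocking on the replicate number, with Benjamini-Hochberg adjustment over 14605 genes; SE was derived from F. CPM use TMM-scaled totals, and log2 CPM a prior count of 2. The pairing comes from the series text; the correlation between the deviations of partner libraries was 0.20, 0.077 and 0.16 over the 3 pairs, while negative library 2 with positive library 3 gave 0.15 and negative library 3 with positive library 2 gave 0.12, so these values do not single out the pairs 2 and 3. Names, lengths and coordinates came from GENCODE M21, which lacked 222 rows; copies were found with BLAST 2.17.0. Genes named with full values were the mitochondrial and Sdh genes, per complex the 3 lowest p in each direction among those passing and the extreme fold changes, the isoforms, and 2 genes per pathway list; other members are given by value or within a range, and 1 is not reported here. Alternatives were other scalings, filters, limma 3.58.1 voom, DESeq2 1.42.0, the normalized table (log2 after adding 1), no block, each pair left out, libraries 2 and 3 summed, and copies summed. The fit was tested on simulated data. Library totals were 33943090 to 55506993 counts; counting error weighs most on members with few counts, such as Cox7a1, Cox7a2 and Cox5b.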

Additional observations from a re-analysis of the deposited data

How the results depend on the processing

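Scaling by library totals alone gave 11 chain genes higher and 4 lower, a nuclear median of 0.28, and 1572 of all genes higher and 3316 lower. With libraries 2 and 3 of each group summed, so that 2 libraries a group remained, edgeR called 0 chain genes and 0 of all genes in either direction, with 28 chain genes at an unadjusted p under 0.05; this leaves 1 residual degree of freedom. DESeq2 called 48 chain genes higher and 3 lower, and 3421 of all genes higher and 3665 lower. Without the replicate block 51 chain genes were higher and 1 lower, and 2911 of all genes higher and 3058 lower; without a filter 0 were lower, and on the authors' normalized counts 1 was lower. Leaving out each replicate pair in turn gave 0 to 5538 of all genes higher and 0 to 5352 lower, 0 to 73 chain genes higher and 0 to 6 lower, nuclear medians of 0.50 to 0.72, mitochondrial medians of -0.21 to 0.20, and a mitochondrial share in the positive group of 0.68 to 0.97 times that in the negative group (0.79 with all).

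Several mitochondrial genes, with main changes from -0.25 (mt-Cytb) to 0.33 (mt-Nd6), turned direction in an alternative, and the cause was not tested. Without pair 1, mt-Nd2, mt-Co1, mt-Nd5 and mt-Nd4l were higher at an adjusted p under 0.05 (edgeR), opposite in sign to the main fit. Leaving out each replicate pair in turn gave -0.017 to 0.46 for mt-Nd1, -0.27 to 0.40 for mt-Nd2, -0.21 to 0.22 for mt-Co1, -0.074 to 0.47 for mt-Co2, -0.095 to 0.58 for mt-Co3, -0.31 to 0.11 for mt-Atp8, -0.18 to 0.30 for mt-Nd4, -0.42 to 0.20 for mt-Nd5, -0.44 to 0.070 for mt-Cytb and -0.29 to 0.14 for mt-Nd4l. With library totals mt-Nd1 was -0.16, mt-Co2 -0.11, mt-Co3 -0.028, mt-Nd4 -0.34, mt-Nd6 -0.018 and Cox7a2 -0.080. Without the replicate block mt-Nd2 was 0.073 and mt-Atp8 0.040, and without a filter mt-Nd2 was 0.028. The value of mt-Nd4 was -0.029 with median-of-ratios factors and with DESeq2, -0.13 with upper quartile factors, -0.052 with the stricter filter, -0.0098 with limma-voom, and -0.11 with replicates 2 and 3 summed.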
